A study of Homo sapiens with 28 samples.

Results

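The mitochondrial ribosomal protein genes were examined in residual HCT116 tumors and in cell lines explanted from such tumors. Members were the genes whose symbol is MRPL or MRPS followed by a number, with or without a final A, B or C, plus DAP3, a protein of the small subunit. This gave 79 of the 58278 genes counted, of which 30 were named for the small and 49 for the large subunit. Pseudogenes were left out. HCT116 is a human colorectal carcinoma cell line, and polyA RNA was sequenced.

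Mitochondria translate the few mRNAs of their own genome, which encode subunits of the respiratory chain and of ATP synthase, on a ribosome of their own. The rRNAs of this mitoribosome come from mitochondrial DNA, whereas every protein in it is encoded in the nucleus, made in the cytosol and imported. Colorectal cancer cells depend on oxidative metabolism to differing degrees, and glutamine, once deaminated by glutaminase, feeds the tricarboxylic acid cycle in the same compartment.

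HCT116 cells carrying luciferase and GFP were grown under the skin of NOD SCID mice, which lack functional lymphocytes but keep mouse stroma, vessels and myeloid cells. The mice, males implanted at 5 weeks of age, received, by mouth for 23 days, vehicle (Control), 100 mg/kg/day of the CDK4/6 inhibitor Palbociclib, 150 mg/kg/day of the glutaminase inhibitor Telaglenastat (spelled Telaglenestat in the deposited labels), or both drugs at these doses (Combination). Tumors taken at the end gave 3 Control, 5 Palbociclib, 4 Telaglenastat and 4 Combination libraries. Cultures established from tumors of each group and grown without drug gave 3 libraries per group, and the labels do not tie a culture to a sequenced tumor.

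The 28 libraries held 6.27e+06 to 1.38e+07 counts each, and all 79 genes passed the filter on low counts in every fit. A pair of library properties moved with the drugs and stand beside the results that follow. The first was the slope of log2 CPM (read counts scaled to the size of the library) on the GC content of a gene's exons, given per SD of GC content and relative to each gene's mean over the libraries. It lay between 0.246 and 0.257 in Control tumors, between 0.0968 and 0.359 in Palbociclib tumors, between -0.385 and -0.300 in Telaglenastat tumors and between -0.283 and -0.161 in Combination tumors. Palbociclib tumor 2 had the lowest slope of its group, and Telaglenastat culture 2 stood apart from the other cultures at 0.418. The second was the share of counts from mitochondrially encoded genes, which was 6.78% to 7.22% in Control tumors and 13.2% to 14.8% in Combination tumors, with Palbociclib tumor 2 at 13.6%. The part of these properties in the results was not tested. Because of the first, each comparison was also fitted after a correction for GC content and exon length, and both fits are given. The GC content of exons given throughout is that of the gene's longest annotated transcript, which need not be the expressed one.

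Promoter sequences (250 bases before to 50 after the annotated start; RefSeq, GRCh38.p14) were found by symbol for 70 of the 79 genes. The letters AAGATGGC, the core of the element bound by YY1, a zinc finger factor known to act at many genes for mitochondrial proteins, were present on either strand in 20 of these 70 promoters (28.6%), against 3.03% of all 27305 promoters of this length and 3.91% of the 15843 promoters of protein coding genes. Of the 21 matches, 17 lay on the strand of the gene and 15 began at or after the annotated start, with a median offset of 9 bases. The windows below are shown for genes named in the results. Each is 30 bases, 5′ to 3′ on the strand of the gene, and capitals mark the match, which is a description and neither a site nor a cause.
MRPS18A (chr6:43687764-43687793, minus strand): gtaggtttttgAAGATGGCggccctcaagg
MRPL38 (chr17:75904860-75904889, minus strand): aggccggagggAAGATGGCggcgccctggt
MRPL22 (chr5:154941093-154941122, plus strand): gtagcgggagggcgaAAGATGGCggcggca
MRPL42 (chr12:93467511-93467540, plus strand): aggattgaaacAAGATGGCgggttcgtggt
MRPL50 (chr9:101398577-101398606, minus strand): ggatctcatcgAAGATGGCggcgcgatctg
MRPS30 (chr5:44808949-44808978, plus strand): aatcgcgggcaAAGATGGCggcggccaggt
MRPL36 (chr5:1799854-1799883, minus strand): ccccccccgccGCCATCTTccttcctggca
In MRPL36 the letters stand on the other strand, so the window shows their reverse complement. In the other windows the bases that follow the match differ, and several run AAGATGGCGGC, in which the ATG is the letters of a start codon.

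The remaining letters searched, on both strands, gave smaller contrasts. The ETS core CCGGAAGT was in 11 of 70 promoters (15.7%), against 4.44% of all and 6.19% of coding promoters. The NRF1 letters GCGCATGC were in 6 (8.57%), against 3.27% and 4.26%. The E-box CACGTG was also in 6 (8.57%), against 7.43% and 8.88%, and the SP1 letters GGGCGG were in 43 (61.4%), against 44.6% and 58.5%. Counts with and without the YY1 letters, given as a description, were as follows. In Telaglenastat against Control tumors 9 of the 20 genes with them were called lower and 6 higher, and of the 50 genes without them 21 were lower and 8 higher. Of all genes tested there, 28.5% were lower and 22.6% higher. In Control tumors against Control cultures, 15 of the 20 were lower and 1 higher, and of the 50 there were 30 lower and 0 higher by edgeR. Of all genes tested in that comparison, 22.8% were lower and 23.1% higher. These calls come from the fit without the correction, and genes with and without the letters were not compared by a test.

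Levels between genes were compared per length, as RPKM (CPM per kilobase of exon). Length was that of all annotated exons merged, 959 to 16393 bases, and not that of the expressed mRNA. The order and span of RPKM therefore depend in part on the annotation. The mean RPKM of a gene over the 28 libraries spanned 41.9-fold, from 1.88 to 78.9, around a median of 15.9. MRPL3 was highest at 78.9 RPKM, followed by MRPL45 at 65.7 RPKM, a protein of the large subunit that faces the inner membrane, and MRPL51 at 61.4 RPKM. The lowest were MRPL55 at 1.88 RPKM, MRPL41 at 2.26 RPKM and MRPS11 at 2.44 RPKM. These neighbours in rank were close compared with their spread: MRPL51 and MRPL45 measured 53.6 ± 7.07 and 47.6 ± 3.65 RPKM in Control tumors (SD, n = 3), the opposite order. In Control cultures MRPL3 measured 106 ± 9.67 RPKM (SD, n = 3) and MRPL45 73.8 ± 5.91 RPKM. Of the genes, 42 share exon bases with another gene. The libraries were made with uracil in the second strand, but whether the counting used strand is not given in the sources used here, so reads from overlapping genes on opposite strands may have been counted together. The overlap was largest for MRPL12, where 68.2% of exon bases also belong to AC139530.2 on the same strand, and its values are uncertain for that reason. Values are likewise uncertain for MRPS18A (47.0% shared with RSPH9), MRPL53 (45.2% with CCDC142), MRPS18C (40.2% with ABRAXAS1), MRPL38 (37.5% with AC087289.3), MRPS28 (35.8% with AC036214.3) and MRPL43 (32.8% with SEMA4G), and 77 rows of the table are pseudogenes named after members, with which reads could have been shared.

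The summed level of the 79 genes was close to constant across the tumor groups. Their CPM, scaled within the tumors, added up to 3646.7 ± 100.2 in Control, 3571.8 ± 140.5 in Palbociclib, 3480.6 ± 67.7 in Telaglenastat and 3633.6 ± 138.9 in Combination tumors (SD; n = 3, 5, 4 and 4). The ranges of the groups overlapped except for Control (3563 to 3758) against Telaglenastat (3397 to 3552). That order depended on the scaling: over all 28 libraries the means were 3412.5 in Control and 3510.3 in Telaglenastat tumors. The balance between the subunits shifted somewhat. Large subunit CPM divided by small subunit CPM was 1.317 to 1.328 in Control tumors and 1.245 to 1.315 in Palbociclib tumors. It was 1.23 to 1.30 in Telaglenastat and 1.19 to 1.24 in Combination tumors. No tumor of any treated group reached a Control tumor, though the highest Palbociclib tumor came close. The exons of the large subunit genes had a median GC content of 50.7%, against 46.5% for the small subunit genes. In cultures, scaled among themselves, the sum was 4869.9 ± 188.4 in Control, 5077.4 ± 186.4 in Palbociclib, 5199.4 ± 1243 in Telaglenastat and 4526.6 ± 323.2 in Combination (SD, n = 3 each). The 3 Telaglenastat cultures ranged from 4110 to 6553.

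Palbociclib tumors differed little from Control tumors. Of the 79 genes, 2 were called lower and 0 higher, that is, past the threshold of 0.05 in the Benjamini-Hochberg adjusted p of edgeR's quasi-likelihood fit to 14848 genes, where 3.6% of all genes tested were lower and 2.55% higher. At an unadjusted p under 0.05 there were 6 members, where 2701 of the 14848 genes passed. DESeq2 also called 2 members lower and 0 higher, counts given without their share of all genes. The median log2 fold change of the 79 was -0.04, against 0.00067 over all genes. With the correction the counts were again 2 and 0, where 4% of all genes were lower and 3.72% higher.

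Both genes called belong to the large subunit. MRPL22, which lines the exit tunnel, measured 33.0, 34.8 and 32.7 CPM in Control tumors and 22.7 to 27.5 CPM (median 24.8) in the 5 Palbociclib tumors. The groups did not overlap, and the log2 fold change was -0.42 ± 0.10 (SE, adjusted p = 0.0109 by edgeR). MRPL11, at the base of the stalk that receives translation factors, measured 34.7, 42.8 and 42.0 CPM in Control and 28.5 to 33.3 CPM in Palbociclib tumors, which gave -0.37 ± 0.11 on the log2 scale (SE, adjusted p = 0.0497 by edgeR). Every Palbociclib tumor lay below every Control tumor for MRPL11, yet the call was lost in 14 of 16 fits that left out 1 tumor library. Without Control tumor 2 neither gene was called.

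Telaglenastat tumors differed from Control tumors in many of these genes, in both directions. In the counts as deposited 34 were lower and 17 higher, where 28.5% of all genes were lower and 22.6% higher. Of the small subunit genes 9 were lower and 6 higher, and of the large subunit genes 25 and 11. The median log2 fold change was -0.04, against 0.03 over all genes. Leaving out Control tumor 1 reduced the count of higher genes from 17 to 10.

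Genes with GC-rich exons fell and genes with GC-poor exons rose. Among the 26 members of lowest exon GC content (33.5% to 43.8%) 0 were lower and 15 higher by edgeR, with a median log2 fold change of 0.28, and of all genes in that GC range 0.626% were lower and 53.6% higher, with a median of 0.35. Among the 26 of highest GC content (52.2% to 71.9%) 22 were lower and 0 higher, with a median of -1.09, and of all genes in that range 67.6% were lower and 0.647% higher, with a median of -0.92. The 27 between them held 12 lower and 2 higher, where 11.9% of all genes in that range were lower and 14.6% higher. Across the 79 genes, which are not independent replicates and share the same libraries, Spearman's rho of the log2 fold change with GC content was -0.86, and over 14800 genes it was -0.78. After the correction rho was -0.08 for the 79 genes.

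With the correction 14 genes were lower and 6 higher, where 8.4% of all genes were lower and 6.33% higher, and the median log2 fold change of the 79 was -0.11, against 0.01 over all genes. In both fits 12 genes were lower: MRPL11, MRPL12, MRPL14, MRPL17, MRPL23, MRPL27, MRPL49, MRPL52, MRPL53, MRPS11, MRPS18A and MRPS24. No gene was higher in both. MRPL21 and MRPL43 were lower in the counts as deposited and higher after the correction. The 12 genes were chosen by these fits, so the list is a description. How many of all genes were lower in both fits is not given here, so the 12 do not set the members apart.

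**Figure D1:**
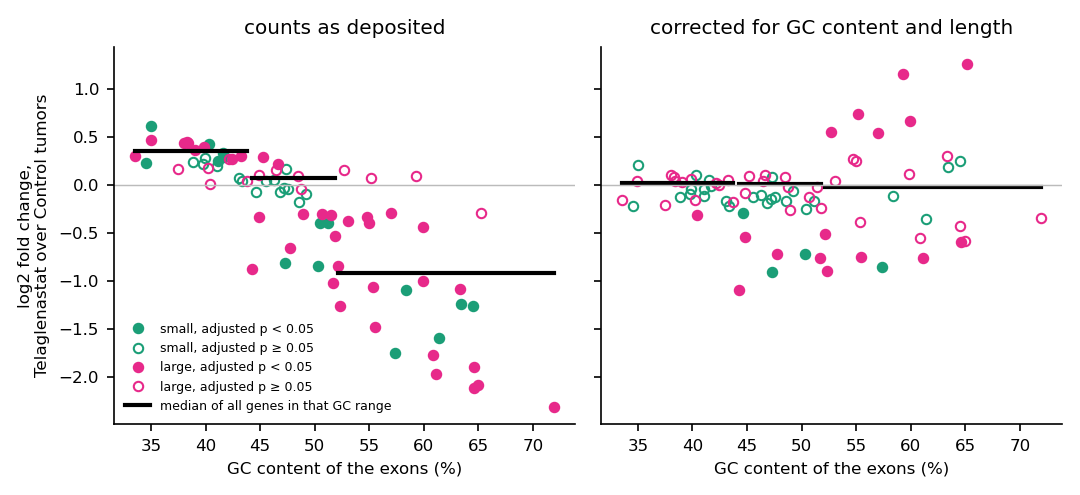
The log2 fold change of Telaglenastat over Control tumors (y axis) against the GC content of the exons in percent (x axis) for the 79 genes, from the counts as deposited (left) and from the corrected fit (right). Filled points were called at an adjusted p under 0.05, and black bars are the median of all genes in each GC range. The slope on the left, with rho at -0.86, is nearly absent on the right.

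The genes that fell most were of the large subunit. MRPL12 (ENSG00000262814.7, chr17:81703357-81707526 in hg38) is the protein of the stalk that recruits translation factors, and it also binds the mitochondrial RNA polymerase. It measured 51.1, 50.9 and 56.0 CPM in Control tumors and 13.68, 9.893, 13.97 and 11.01 CPM in Telaglenastat tumors. The groups lay far apart, with a log2 fold change of -2.12 ± 0.15 (SE, adjusted p = 4.63e-09 by edgeR). The correction left -0.60 ± 0.14 (adjusted p = 0.00494 by edgeR). MRPL41, with the most GC-rich exons of the 79 (71.9%), measured 4.38, 3.43 and 4.52 CPM in Control and 1.82, 0.836, 0.304 and 0.298 CPM in Telaglenastat tumors. Its log2 fold change was -2.31 ± 0.45 (SE), and -0.34 ± 0.48 after the correction (adjusted p = 0.719 by edgeR). MRPL4, MRPL23 and MRPL38, of which the first belongs to the wall of the exit tunnel and the second to its mouth, had log2 fold changes of -2.08, -1.97 and -1.90. After the correction these were -0.58, -0.76 and -0.43, and of the 3 only MRPL23 remained called (adjusted p = 0.0264 by edgeR).

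MRPL27, MRPL49 and MRPS18A carried the clearest differences in both fits. MRPL27 (chr17:50367857-50373214), a protein near the peptidyl transferase centre, has exons of moderate GC content (44.2%). It measured 47.8, 48.7 and 47.6 CPM in Control and 23.9, 26.2, 24.9 and 30.1 CPM in Telaglenastat tumors. No Telaglenastat tumor came near a Control tumor, and the log2 fold change was -0.87 ± 0.11 before and -1.10 ± 0.12 after the correction (SE, adjusted p = 3.55e-06 and 2.01e-06 by edgeR). MRPL49 (chr11:65122183-65127371) measured 81.8, 91.2 and 88.8 CPM in Control and 43.3, 47.9, 35.5 and 44.6 CPM in Telaglenastat tumors. Its log2 fold change was -1.02 ± 0.11 and, corrected, -0.76 ± 0.10 (SE, corrected adjusted p = 2.88e-05 by edgeR). MRPL49 shares 9.16% of its exon bases with FAU and 11.6% with SYVN1, both on the opposite strand. Reads of these genes may have been counted with it. MRPS18A (chr6:43671303-43687791) is 1 of 3 human versions of the bacterial protein S18. Its name puts it with the small subunit here, although structures place it in the large subunit. It measured 24.6, 33.2 and 29.2 CPM in Control and 10.9, 8.22, 7.74 and 7.59 CPM in Telaglenastat tumors, a log2 fold change of -1.75 ± 0.17 and, corrected, -0.85 ± 0.14 (SE, corrected adjusted p = 0.000168 by edgeR).

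The other versions of S18 behaved differently from it. MRPS18B, in the small subunit, had a log2 fold change of -0.40 ± 0.08 (SE, adjusted p = 0.000342 by edgeR), which was -0.16 after the correction (adjusted p = 0.165 by edgeR). MRPS18C was at 0.24 ± 0.11 (adjusted p = 0.0799 by edgeR) and -0.12 after the correction. The differences among the 3 were not tested, and both MRPS18A and MRPS18C overlap another gene, as given above. MRPS12, a protein of the decoding centre, measured 8.87, 12.2 and 8.65 CPM in Control and 3.34, 3.48, 5.01 and 6.70 CPM in Telaglenastat tumors. Its log2 fold change of -1.10 ± 0.27 (SE, adjusted p = 0.002 by edgeR) was -0.11 after the correction.

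The genes that rose had GC-poor exons and did so by smaller amounts. MRPS36 (chr5:69217760-69230129), first described as a ribosomal protein and since known as an adaptor in the oxoglutarate dehydrogenase complex of the tricarboxylic acid cycle, measured 17.4, 20.4 and 20.9 CPM in Control and 31.16, 31.07, 29.003 and 28.43 CPM in Telaglenastat tumors. The groups did not overlap, and the log2 fold change was 0.61 ± 0.12 (SE, adjusted p = 0.000233 by edgeR), or 0.21 ± 0.11 after the correction (adjusted p = 0.254 by edgeR). MRPL50 measured 33.9, 37.2 and 35.0 CPM in Control and 49.9, 45.7, 47.2 and 53.3 CPM in Telaglenastat tumors, and MRPL42 measured 138, 131 and 127 CPM in Control and 178, 178, 183 and 177 CPM in Telaglenastat tumors. Each Telaglenastat tumor was above each Control tumor for both genes. Their log2 fold changes of 0.47 and 0.44 were 0.04 and 0.05 after the correction, as were those of MRPL19 (0.45, corrected 0.08) and MRPL47 (0.44, corrected 0.10). MRPL3 had a log2 fold change of 0.27 ± 0.08 (SE, adjusted p = 0.00722 by edgeR) that was 0.00 after the correction.

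MRPL40 and MRPL36 were called by the correction alone. MRPL40 (chr22:19431902-19436075), in the chromosome region lost in DiGeorge syndrome, measured 30.8, 28.4 and 28.3 CPM in Control and 29.3, 32.5, 28.2 and 34.4 CPM in Telaglenastat tumors. The groups overlapped and the log2 fold change was 0.09 ± 0.11 (SE, adjusted p = 0.499 by edgeR), whereas the corrected value was 1.16 ± 0.11 (adjusted p = 3.75e-07 by edgeR). MRPL36 measured 16.1, 14.4 and 12.9 CPM in Control and 12.8, 11.6, 10.2 and 12.8 CPM in Telaglenastat tumors, each below the lowest Control tumor. Its log2 fold change of -0.29 ± 0.16 became 1.26 ± 0.20 after the correction (SE, corrected adjusted p = 0.000157 by edgeR). The longest annotated transcripts of these genes hold 59.3% and 65.2% GC. Their corrected values state only that they differed from other genes with that annotated composition.

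Genes named for their role and not for a change complete the picture. DAP3, the GTP-binding protein of the small subunit, was at 0.05 ± 0.07 (log2 fold change ± SE, adjusted p = 0.563 by edgeR). MRPL37, a protein found in mitochondrial and not in bacterial ribosomes, was at -0.38 ± 0.10 (adjusted p = 0.0026 by edgeR) and at 0.04 after the correction. MRPS30, like MRPS18A placed in the large subunit by structures, was at 0.23 ± 0.09 (adjusted p = 0.0464 by edgeR) and at -0.21 after the correction. MRPL44, which has the fold of ribonuclease III, was at 0.11 ± 0.10 and -0.08 in the same fits, neither value called.

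**Figure D2:**
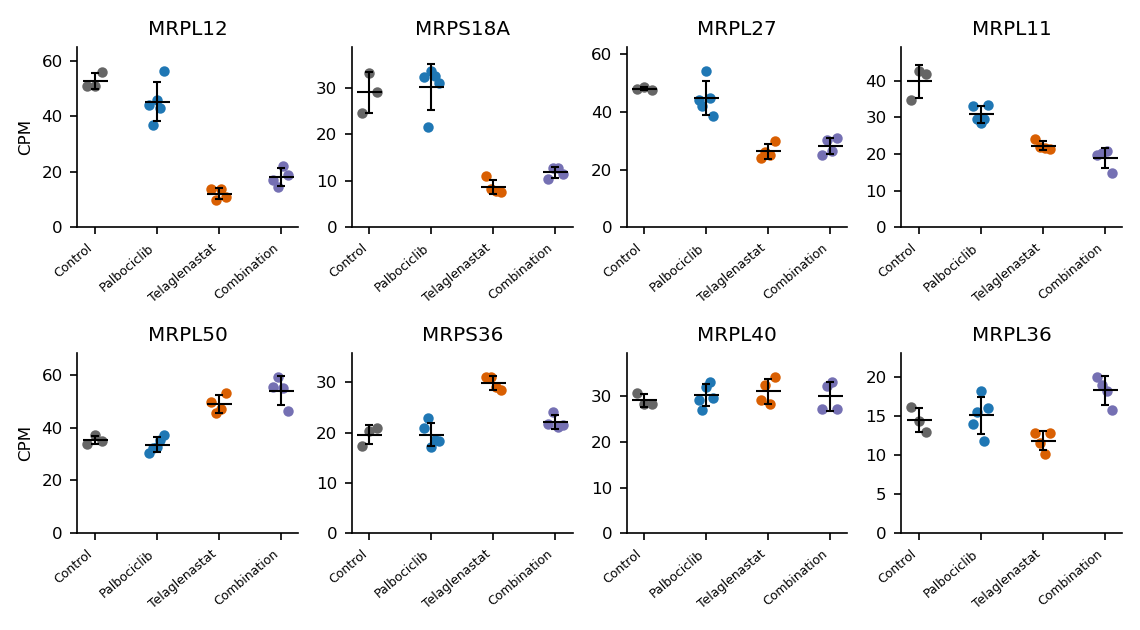
CPM (y axis, from 0) of 8 named genes in each tumor (points) by treatment (x axis); bars are the group mean and SD. MRPL12, MRPS18A, MRPL27 and MRPL11 are lower and MRPL50 is higher in the Telaglenastat and Combination groups, MRPS36 is higher in the Telaglenastat group, and MRPL40 and MRPL36 overlap Control in Telaglenastat tumors or come close to it.

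Combination tumors differed from Control tumors in similar numbers of genes. In the counts as deposited 28 were lower and 21 higher, where 26.9% of all genes were lower and 17.6% higher, with 8 and 8 in the small and 20 and 13 in the large subunit. The median log2 fold change was 0.03, against -0.04 over all genes. The 26 genes of highest GC content held 18 lower and 1 higher, where 59.6% of all genes in that range were lower and 2.24% higher. The 26 of lowest held 0 lower and 15 higher by edgeR, where 3.84% were lower and 34.1% higher, and the 27 between them held 10 and 5, where 12.9% were lower and 18.1% higher. Spearman's rho with GC content was -0.72 across the 79 genes and -0.64 across 14800 genes. With the correction 20 genes were lower and 11 higher, where 13.1% of all genes were lower and 13.3% higher. The comparison shares its Control tumors with the preceding ones.

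The largest falls were MRPL54 (-1.89), MRPL4 (-1.81), MRPL38 (-1.74), MRPL12 (-1.54) and MRPL23 (-1.45), all log2 fold changes in the counts as deposited. MRPL54 measured 10.67, 13.83 and 12.52 CPM in Control and 3.97, 2.69, 4.12 and 2.53 CPM in Combination tumors. Its corrected log2 fold change was -0.99 ± 0.29 (SE, adjusted p = 0.0156 by edgeR). After the correction MRPL38 was at -0.56 (adjusted p = 0.01 by edgeR) and MRPL12 at -0.42 (adjusted p = 0.0237 by edgeR), while MRPL4 at -0.60 and MRPL23 at -0.48 were no longer called.

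By corrected adjusted p the leading genes were MRPL49, MRPL27, MRPL40, MRPL36 and MRPL11. MRPL49 measured 42.7, 43.1, 39.5 and 40.8 CPM in Combination tumors, against 81.8 to 91.2 CPM in Control, a log2 fold change of -1.07 ± 0.11 and, corrected, -0.89 ± 0.10 (SE, corrected adjusted p = 3.04e-06 by edgeR). MRPL27 measured 24.9, 30.2, 26.6 and 30.8 CPM in Combination tumors, against 47.6 to 48.7 CPM in Control, with a corrected log2 fold change of -0.97 ± 0.12 (SE). MRPL11 measured 19.9, 20.3, 20.9 and 14.9 CPM, and its corrected log2 fold change was -0.85 ± 0.11 (SE, adjusted p = 1.72e-05 by edgeR). For these 3 genes no Combination tumor overlapped a Control tumor. MRPL40 and MRPL36 were again called only after the correction, at 0.87 and 1.53, with 0.04 and 0.33 before it. MRPS18A was at -1.30 ± 0.16 and, corrected, -0.65 (adjusted p = 0.000951 by edgeR), and MRPS18B at -0.42 ± 0.08 and, corrected, -0.31 (adjusted p = 0.00396 by edgeR).

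In both fits 17 genes were lower, and DAP3, MRPL34, MRPL50, MRPS23 and MRPS33 were higher in both. The share of all genes called in both fits is not given here, so these counts do not set the members apart. MRPL50 measured 55.3, 59.4, 55.0 and 46.3 CPM in Combination tumors, all above the 37.2 CPM of the highest Control tumor. Its log2 fold change was 0.61 ± 0.10, and 0.30 ± 0.11 after the correction (SE, corrected adjusted p = 0.0408 by edgeR). DAP3 measured 126, 128 and 133 CPM in Control and 159, 168, 145 and 175 CPM in Combination tumors. These groups did not overlap either, with 0.33 ± 0.07 before and 0.19 after the correction (SE, adjusted p = 0.000993 and 0.0391 by edgeR). MRPS23 was at 0.42 (corrected 0.27), MRPS33 at 0.45 (corrected 0.26) and MRPL34 at 0.39 (corrected 0.87). MRPS17 (0.42) and MRPL47 (0.42) were higher in the counts as deposited only.

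The remaining genes named for their role gave small values in Combination tumors. MRPL3 was at 0.31 ± 0.08 (log2 fold change ± SE, adjusted p = 0.00383 by edgeR) and at 0.08 after the correction. MRPL37 was at -0.33 ± 0.10 (adjusted p = 0.00788 by edgeR) and at -0.03 after the correction. MRPS12 was at -0.60 ± 0.26 (adjusted p = 0.0663 by edgeR), MRPS18C at 0.27 ± 0.11, MRPS30 at 0.13 ± 0.09 and MRPL44 at 0.09 ± 0.10, none of them called. In Palbociclib tumors the log2 fold changes of these genes named for their role ran from -0.22 ± 0.13 for MRPL12 to 0.35 ± 0.24 for MRPS12, and none was called.

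Combination tumors were next set against each drug alone. Against Palbociclib tumors 27 genes were lower and 23 higher, where 27.5% of all genes were lower and 20.1% higher. With the correction 15 were lower and 9 higher, where 7.97% of all genes were lower and 7.35% higher. The largest falls were MRPL4 (-1.98), MRPL54 (-1.84) and MRPS2 (-1.51), the last a protein of the small subunit with a bacterial counterpart, and the largest rises MRPL50 (0.69), MRPS17 (0.50) and MRPL13 (0.44), as log2 fold changes. MRPL13 was at 0.06 after the correction and MRPS17 was not called there (adjusted p = 0.0605 by edgeR).

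Against Telaglenastat tumors few genes differed: 1 was lower and 6 higher, where 9.89% of all genes were lower and 8.93% higher. With the correction 3 were lower and 4 higher, where 7.21% of all genes were lower and 8.49% higher. MRPS36 was the gene that was lower, with 21.8, 24.2, 21.0 and 21.4 CPM in Combination against 31.16, 31.07, 29.003 and 28.43 CPM in Telaglenastat tumors. The groups did not overlap, and the log2 fold change was -0.44 ± 0.11 (SE, adjusted p = 0.00784 by edgeR) and -0.38 after the correction (adjusted p = 0.0167 by edgeR). MRPS23 measured 151, 165, 164 and 137 CPM in Combination against 108, 107, 115 and 108 CPM in Telaglenastat tumors, with 0.49 ± 0.09 before and 0.57 ± 0.08 after the correction (SE, adjusted p = 0.000621 and 3.68e-05 by edgeR). MRPL36 (0.62) and MRPL12 (0.58) were higher in the counts as deposited and not called after the correction. DAP3 was higher in both fits, at 0.28 and 0.30. The count of higher genes was 10 without Palbociclib tumor 2, which enters the shared estimate of spread, and the count of lower genes was 2 without Telaglenastat tumor 1.

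**Figure D3:**
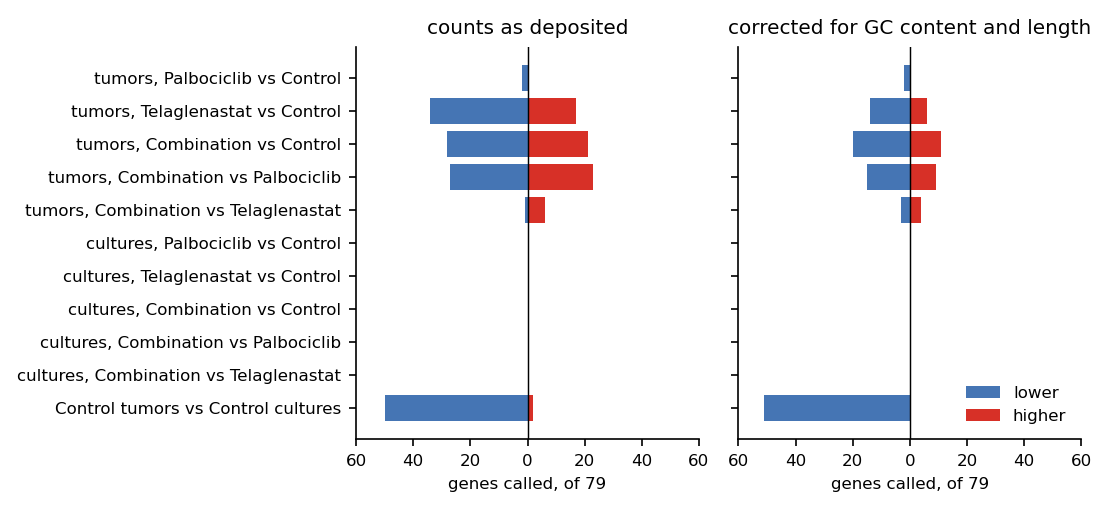
Number of the 79 genes called lower (left of 0) and higher (right of 0) by edgeR in each comparison (rows), from the counts as deposited and from the corrected fit. The 5 comparisons among cultures have no bar. The bars go from 34 and 17 to 14 and 6 after the correction for Telaglenastat against Control tumors, from 1 and 6 to 3 and 4 for Combination against Telaglenastat tumors, and the Control tumors against Control cultures bar keeps its length.

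No comparison among the cultures called a member. Of 13985 genes tested, edgeR called 0% in Palbociclib against Control, Telaglenastat against Control, Combination against Palbociclib and Combination against Telaglenastat, and 0.00715% in Combination against Control. At an unadjusted p under 0.05 the members numbered 2 in Palbociclib against Control (4.23% of all genes), 4 in Telaglenastat against Control (6.42%), 8 in Combination against Control (6.4%), 0 in Combination against Palbociclib (1.98%) and 22 in Combination against Telaglenastat (14.1%). DESeq2 called 1 member, lower in Combination than in Telaglenastat cultures, and 0 in the other comparisons. Without Telaglenastat culture 1 edgeR called 21 members lower in that comparison. The share of all genes called in that fit is not given here, so the count does not set the members apart from other genes.

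The directions in cultures were nevertheless lopsided, mostly below 0 for the Combination and mostly above 0 for Telaglenastat. The genes share the same libraries and are not independent, and these directions were not tested. Over the 79 genes the median log2 fold change against Control was 0.05 for Palbociclib, 0.14 for Telaglenastat and -0.16 for Combination, with 32, 13 and 64 of 79 below 0, and the medians over all genes were -0.00073, 0.04 and -0.01. For Combination against Palbociclib cultures 73 of 79 were below 0 (median -0.17) and against Telaglenastat cultures 74 of 79 (median -0.29). The medians over all genes there were 0.0033 and -0.035. After the correction 66 of 79 were below 0 in Combination against Control, with a median of -0.13, and 30 of 79 in Telaglenastat against Control, with a median of 0.04. Over all genes the corrected medians were -0.0095 and 0.0089. The share of all genes below 0 is not given here for any of these comparisons. MRPL12 measured 53.9, 29.2 and 44.6 CPM in Control and 24.02, 21.22 and 20.05 CPM in Combination cultures. These groups did not overlap, yet with a log2 fold change of -0.97 ± 0.36 (SE) the adjusted p was 0.681 by edgeR. In Telaglenastat cultures MRPL12 measured 25.3, 85.5 and 52.7 CPM, the highest value in culture 2, the library with the steepest GC slope.

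Most of these genes were lower in Control tumors than in Control cultures, in both subunits and with or without the correction. Of the 79, 50 were lower in tumors and 2 higher, where 22.8% of all 15466 genes tested were lower and 23.1% higher. The small subunit gave 19 lower and 1 higher and the large subunit 31 and 1. The median log2 fold change was -0.52, against 0.07 over all genes. With the correction 51 were lower and 0 higher, where 22.8% of all genes were lower and 17.7% higher, and the median was -0.49, against -0.03 over all genes. There were 42 genes lower in both fits, a count given without its share of all genes. The count at an unadjusted p under 0.05 was 57 in both fits, where 8126 of all 15466 genes passed before and 7450 after the correction. DESeq2 without the correction gave 48 lower and 3 higher, counts given without their share of all genes. The summed CPM, scaled over all 28 libraries, was 3412.5 ± 114 in Control tumors and 5051.3 ± 183 in Control cultures (SD, n = 3 each), with no overlap (3322 to 3540 against 4844 to 5190).

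The lowest genes were of the large subunit. MRPL3, a large subunit protein whose mutation is known from cardiomyopathy, measured 281, 318 and 268 CPM in cultures and 133, 134 and 133 CPM in tumors on the scale of all libraries. Its log2 fold change was -1.12 ± 0.12 and, corrected, -0.85 ± 0.10 (SE, corrected adjusted p = 6.47e-08 by edgeR). MRPL39, which resembles threonyl-tRNA synthetase, measured 50.1, 50.2 and 42.0 CPM in cultures and 23.03, 20.96 and 20.95 CPM in tumors, a log2 fold change of -1.13 ± 0.20 and, corrected, -0.88. MRPL13 measured 119, 134 and 101 CPM in cultures and 50.6, 61.0 and 53.3 CPM in tumors, at -1.10 ± 0.19 and, corrected, -0.68. In all 3 genes the groups lay apart. DAP3 was also lower, with 117, 120 and 124 CPM in tumors against 183, 178 and 177 CPM in cultures.

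MRPL23 and MRPS18A were the 2 genes called higher in tumors, at 0.84 ± 0.32 and 0.62 ± 0.24 (log2 fold change ± SE, adjusted p = 0.0316 and 0.0373 by edgeR). MRPL23 measured 23.03, 18.77 and 20.47 CPM in tumors and 14.2, 8.19 and 12.4 CPM in cultures. MRPS18A measured 22.9, 31.3 and 27.2 CPM in tumors and 20.98, 11.01 and 21.08 CPM in cultures. Control culture 2 had the lowest value for both, and without it, or without Control tumor 3, neither call held. The corrected values were 0.12 and 0.09, not called.

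Tumors hold cells that the cultures lack, and in bulk RNA fewer cells of a type and less RNA per cell cannot be told apart. The 16 markers of fibroblasts, vessels and leukocytes summed to 175 to 222 CPM in Control tumors and 5.50 to 10.7 CPM in Control cultures, with 4 and 7 of the 16 at 0 in every library of the group. COL1A1, counted on the human annotation, was at 100.3 to 128 CPM in Control tumors, while PTPRC, which defines leukocytes, reached at most 0.313 CPM and LUM was at 0 in every tumor. The 12 markers of colorectal epithelium summed to 2839 to 3420 CPM in Control tumors and 1539 to 2138 CPM in Control cultures, with EPCAM and CDH1 well expressed and CDX1 at 0 in the tumors. In Telaglenastat tumors the stromal sum was 58.7 to 73.9 CPM and the epithelial sum 1685 to 1848 CPM, and in Combination tumors 111 to 165 CPM and 2438 to 2757 CPM. The epithelial markers did not move together. In Telaglenastat tumors KRT8 was at 436 to 529 CPM, against 999 to 1209 CPM in Control tumors. EPCAM was at 471 to 508 CPM, against 390 to 404 CPM, and CDH1 at 159 to 180 CPM, against 146 to 167 CPM. The part of these markers in the results was not tested.

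**Figure D4:**
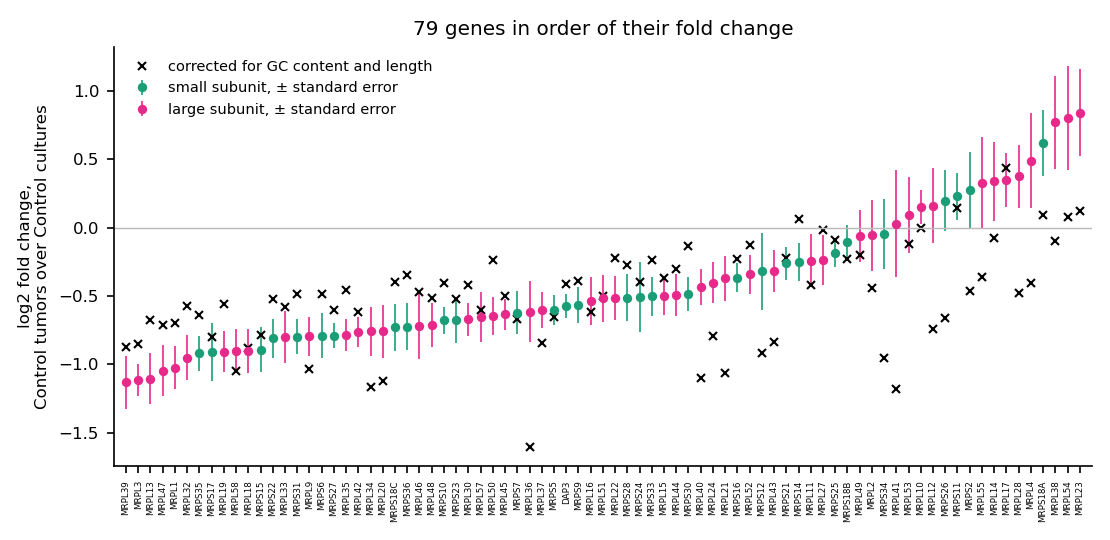
The log2 fold change of Control tumors over Control cultures (y axis) for the 79 genes in rising order (x axis), with the standard error, and the corrected value of each as a cross. From MRPL39 at -1.13 to MRPL23 at 0.84, most points lie below 0. Of the crosses 73 lie below 0, and the highest is at 0.43.

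Whether a drug acted alike in tumors and cultures was tested as the difference between the log2 fold changes. For Palbociclib 0 members differed, where 1.39% of all genes did. At an unadjusted p under 0.05 there were 3, where 2159 of 15466 genes passed, and DESeq2 called 0 members. For Telaglenastat 30 differed (26 with a lower value in tumors, 4 with a higher), where 34.1% of all genes did. The largest differences were MRPL4 at -2.53 ± 0.49 (log2 difference ± SE, adjusted p = 0.000556 by edgeR), MRPL12 at -2.39 ± 0.39 and MRPL38 at -2.35 ± 0.48, and on the other side MRPL19 at 0.71 ± 0.20, MRPL35 at 0.57 ± 0.16 and MRPL3 at 0.49 ± 0.16. With the correction 6 differed, where 4.8% of all genes did: MRPS11, MRPS18A, MRPL17, MRPL27 and MRPL52 with a lower and MRPL40 with a higher value in tumors. For the Combination DAP3 alone differed, by 0.43 ± 0.12 (adjusted p = 0.0498 by edgeR), where 2.91% of all genes did, and the call was lost in 23 of 28 fits that left out 1 library. With the correction 1 gene, MRPL40, differed for the Combination, where 2.5% of all genes did. Leaving out Telaglenastat culture 3, 2 or 1 raised the count for the Combination to 8, 5 and 3.

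The other genes of mitochondrial translation were described by lists chosen beside the members, naming the largest called falls and rises of each. Counts for this and the following lists in Telaglenastat tumors stand against 28.5% of all genes lower and 22.6% higher. After the correction these shares were 8.4% and 6.33%. In Combination tumors 26.9% of all genes were lower and 17.6% higher, and 13.1% and 13.3% after the correction. Of the 4 subunits with other names, 3 were lower and 1 higher in Telaglenastat than in Control tumors. AURKAIP1 was at -2.50 ± 0.32 and, corrected, -0.77, GADD45GIP1 at -2.17 ± 0.25 and, corrected, -1.02, and PTCD3 at 0.40 ± 0.08 and, corrected, 0.13 (log2 fold change ± SE), of which only GADD45GIP1 was called in both fits. Of 15 translation factors tested, 2 were lower and 6 higher. The elongation factor TUFM was at -1.84 ± 0.15 and, corrected, -0.93 (corrected adjusted p = 5.45e-06 by edgeR). TACO1, an activator of MT-CO1 translation, was at -0.40, the initiation factor MTIF2 at 0.40 and LRPPRC, which stabilises mitochondrial mRNAs, at 0.47, none of them called after the correction. In Combination tumors 2 of the 15 were lower and 10 higher. Counts of this list after the correction are not given here for either drug comparison. TUFM was at -1.61 ± 0.14 and, corrected, -0.90, and the elongation factor GFM2 at 0.50 and, corrected, 0.30, each called in both fits.

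Of 27 assembly and rRNA modification factors, 12 were lower and 5 higher in Telaglenastat tumors, and 5 and 3 after the correction. MPV17L2 (-2.15, corrected -0.95) and the GTPase MTG2 (-1.68, corrected -0.63) fell most, and of these MTG2 was called in both fits. The rRNA methyltransferase METTL15 (0.51) and MALSU1 (0.57) rose most and were not called after the correction. In Combination tumors 12 were lower and 4 higher, and 5 and 2 after the correction, with the GTPase NOA1 at 0.42 and, corrected, 0.84, called in both. Of 12 genes of mitochondrial transcription and RNA processing, 3 were lower and 7 higher in Telaglenastat tumors, and 2 and 0 after the correction. These were POLRMT, the mitochondrial RNA polymerase (-2.49, corrected -0.91), and HSD17B10, a subunit of mitochondrial RNase P (-1.60, corrected -0.67). In Combination tumors POLRMT was at -1.76 and, corrected, -0.46, the latter not called.

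Of 8 nuclear regulators of mitochondrial genes tested, 3 were lower and 3 higher in Telaglenastat tumors, and 1 and 1 after the correction. The nuclear receptor ESRRA (-1.76, corrected -0.38) and the coactivator PPRC1 (-1.17, corrected -0.37) fell most, and GABPA (0.45, corrected 0.04) and GABPB1 (0.42, corrected 0.06) rose most. Of these PPRC1 was called in both fits. YY1, named for the promoter letters above, was at 0.28 and, corrected, 0.25 in Telaglenastat and at 0.26 and 0.26 in Combination tumors, called each time.

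The RNAs that mitoribosomes hold or translate gave other counts and medians than the mRNAs of the 79 genes, a contrast that was not tested. Of 15 mitochondrially encoded mRNAs and rRNAs, 10 were higher in Palbociclib tumors, 2 in Telaglenastat tumors and 15 in Combination tumors, and after the correction 9, 0 and 15, with 0 lower in each by edgeR. Of all genes tested 2.55%, 22.6% and 17.6% were higher in these comparisons, and 3.72%, 6.33% and 13.3% after the correction. The list's median log2 fold change was 0.56, 0.29 and 1.13, against -0.04, -0.04 and 0.03 for the 79 protein genes in the same comparisons. The rRNA of the large subunit, MT-RNR2, was at 1.24 ± 0.15 (SE, adjusted p = 1.48e-06 by edgeR) in Combination tumors. These RNAs were sequenced from a polyA selection, which holds mitochondrial RNAs by their short tails. Differences between this list and the 79 genes were not tested.

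Counts for the lists in Control tumors against Control cultures stand against 22.8% of all genes lower and 23.1% higher. Of the subunits with other names 1 of 4 was lower and 0 higher in both fits (PTCD3, -1.001 ± 0.09). Of the translation factors 12 of 15 were lower and 0 higher, of the assembly factors 10 of 27 and 0, of the transcription and processing genes 7 of 12 and 1, of the regulators 5 of 8 and 0, and of the mitochondrially encoded RNAs 7 of 15 and 0 (edgeR; 11, 15, 7, 6 and 5 lower after the correction, with 0 higher in each). The largest fall of each list was SLIRP (-1.25 ± 0.25), C1QBP (-1.15 ± 0.14), SUPV3L1 (-1.14 ± 0.13), PPARGC1B (-0.94 ± 0.19) and MT-RNR2 (-0.91 ± 0.16), and POLRMT (0.96 ± 0.38, corrected 0.01) was the gene called higher (log2 fold change ± SE).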

How the data were processed

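RNA was sequenced from 16 residual HCT116 tumors and 12 explanted cultures as 1 table of read counts per gene. The authors deposited raw counts, not normalized, after polyA selection and an NEBNext Ultra library kit with uracil in the second strand; the submitters' processing notes name CASAVA 1.8, STAR and hg38, and the strand setting of the counting was not given in the sources used here. Groups came from the labels. Gene lengths, GC content and positions came from GENCODE 29, which matched 57940 of 58278 identifiers and all 79 members. Length was that of the merged exons, and GC content that of the longest annotated transcript.

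Counts were filtered with filterByExpr (minimum count 10), scaled by TMM and tested with edgeR 4.0.16 (quasi-likelihood; limma 3.58.1, R 4.3.3), tumors and cultures apart and all 28 libraries together for comparisons between them, with Benjamini-Hochberg adjustment over all genes tested and a threshold of 0.05. CPM for drug comparisons were scaled within tumors or within cultures. The correction for GC content and length used robust natural splines (4 degrees of freedom) per library as offsets, and removes any real difference that follows composition. Alternatives were DESeq2 1.42.0, its size factors in edgeR, no filter, the correction, a replicate block, and leaving out each library. Scripts were tested on simulated counts. The label numbers did not pair the samples, and no 2 libraries of a group agreed within sampling noise. Replicates are separate tumors or cultures. Named genes were the largest called changes of each comparison, genes fixed by role, the smallest corrected p-values and the highest and lowest levels. The members and lists were chosen with earlier results of these data known.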

Additional observations from a re-analysis of the deposited data

Results flagged for a closer look

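Among 37 named genes, the tumor groups of 4 or 5 libraries gave 111 sets of values, of which 8 had a library standing apart from the rest of its group; chance alone flags about 1 in 20 groups. In Telaglenastat tumors MRPL3 was highest in tumor 1 (187 CPM, the others 166 to 168 CPM), MRPL51 lowest in tumor 2 (65.6 CPM, the others 74.0 to 75.5 CPM), and tumor 3 was lowest for MRPL38 (7.14 CPM, the others 9.97 to 10.5 CPM) and highest for MRPL42 (183 CPM, the others 177 to 178 CPM) and MRPS23 (115 CPM, the others 107 to 108 CPM). Palbociclib tumor 2 was lowest for MRPS18A (21.6 CPM, the others 31.1 to 33.7 CPM) and highest for MRPS30 (91.9 CPM, the others 70.2 to 76.0 CPM). MRPL11 was lowest in Combination tumor 4 (14.9 CPM, the others 19.9 to 20.9 CPM).

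The effect of Telaglenastat differed between tumors and cultures for 18 of the 37 named genes, by a test of the difference itself (edgeR, adjusted over all genes). Named genes were chosen in part as the largest called changes, also of this difference, so that count is a description. Among all 79 genes 26 had a lower and 4 a higher value in tumors, where 34.1% of all genes tested differed. The log2 difference (effect in tumors minus effect in cultures) was -2.53 for MRPL4, -2.39 for MRPL12, -2.35 for MRPL38, -2.32 for MRPL41, -2.23 for MRPL23, -2.06 for MRPL54 and -1.96 for MRPS18A. It was -1.43 for MRPL55, -1.42 for MRPS2, -1.27 for MRPS12, -1.001 for MRPS11, -0.94 for MRPL11, -0.81 for MRPL49 and -0.71 for MRPL27. It was above 0 for MRPL42 (0.42), MRPL3 (0.49), MRPL35 (0.57) and MRPL19 (0.71). For MRPL4 the effects behind it were -2.08 in tumors and 0.54 in cultures. For the Combination 1 named gene differed, DAP3, by 0.43 (0.33 in tumors, -0.0032 in cultures).

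After the correction for GC content and length, MRPS11 (-0.97), MRPS18A (-0.95) and MRPL27 (-0.99) were still called for Telaglenastat and the other 15 were not. MRPL40 was called after the correction only, at 1.40 for Telaglenastat (adjusted p = 0.000196 by edgeR) and 0.81 for the Combination (adjusted p = 0.038 by edgeR), and DAP3 was then not called.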

How the results depend on the processing

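Precision is limited by 3 to 5 libraries per group and by low counts in genes such as MRPL41. The correction for GC content and length, alone or with the replicate block, changed most; the cause was not tested. In Telaglenastat tumors it left 14 lower (12 with the block) and 6 higher (6 with the block). In Combination tumors it left 11 higher (9 with the block), against Palbociclib tumors 15 lower and 9 higher (12 and 8 with the block), and against Telaglenastat tumors 3 lower (2 higher with the block). For Control tumors against Control cultures it left 0 higher (0 with the block), and for the difference in Telaglenastat effects 6 (6 with the block).

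The replicate block alone gave 0 lower genes in Palbociclib tumors (also 0 with the correction), 1 higher gene in Control tumors against cultures and 0 for the Combination difference (0 with the correction), and moved no other count over 1.5 times; the label numbers did not pair the samples, since 0 of 21 same-numbered tumor pairs and 3 of 18 culture pairs had a correlation over 0.1. In Palbociclib tumors DESeq2 size factors gave 1 lower and no filter 1. For the Combination difference DESeq2 gave 2, its size factors 0 and no filter 5. Without the filter 5 genes were higher in Control tumors than cultures, 1 differed for Palbociclib between tumors and cultures, 2 were lower in Combination than Control cultures and 13 lower than in Telaglenastat cultures, where DESeq2 gave 1.

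Leaving out 1 library at a time gave 0 to 2 lower genes in Palbociclib tumors, 10 to 18 higher in Telaglenastat tumors, 1 to 2 lower and 4 to 10 higher in Combination against Telaglenastat tumors, 0 to 21 lower in Combination against Telaglenastat cultures, 0 to 4 higher in Control tumors against cultures and 0 to 8 for the Combination difference. The libraries were Control tumor 2 for the 0 in Palbociclib tumors, Control tumor 1 for the 10, Palbociclib tumor 2 for the other 10, Telaglenastat culture 1 for the 21 and Telaglenastat culture 3 for the 8. These counts, and those of the other settings except the correction alone, stand without the share of all genes called in each fit.

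Signs turned for genes near 0 or of extreme GC content. With the correction (and with block and correction) the log2 fold changes in Telaglenastat tumors were -0.11 (-0.11) for DAP3, -0.12 (-0.11) for MRPS18C, -0.21 (-0.19) for MRPS30, 0.042 (0.088) for MRPL37, -0.081 (-0.066) for MRPL44 and 1.26 (1.34) for MRPL36. In Combination tumors they were 0.15 (0.062) for MRPS12, -0.15 (-0.13) for MRPS30 and -0.13 (-0.12) for MRPL44, and 0.015 with both for MRPL37. For MRPL3 in Palbociclib tumors the value was 0.00016 by DESeq2, 1.3e-05 by its size factors, 0.022 with the correction, 0.029 with the block and 0.046 with both; leaving out 1 library gave -0.050 to 0.018. Likewise MRPS18A in Palbociclib tumors ranged from -0.043 to 0.17 and MRPL40 in Combination tumors from -0.0072 to 0.091.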
